A study of Mus musculus with 8 samples.

Results

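The cells described here are cultured mouse hippocampal cells in which Olig2 RNA was detected 8 days after growth factors were withdrawn. They were chosen by 1 value, a deposited log2 expression of Olig2 of at least 1, in the 2 libraries of day 8. The rule took 1551 of 6177 day 8 cells, out of 30408 cells in the series. They numbered 869 of 2965 cells in the library labelled Kmt2d+/βgeo and 682 of 3212 in the library labelled wild type. They were set against the day 8 cells of their own library in which Olig2 was at 0, 2094 and 2459 cells. The remaining 2 and 71 cells had a value above 0 and under 1 and entered neither class. Because Olig2 chose the cells, its level in them is a description and was not tested. Each library is a single time point, so no cell was followed from day 0, and a cell with Olig2 at day 8 may have kept it or gained it.

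Olig2 is a basic helix-loop-helix transcription factor that is required for the oligodendrocyte lineage, the cells that make myelin. In the brain it is also found in some multipotent progenitors, in intermediate progenitors and in a part of the astrocyte lineage. Neural progenitors held in culture with epidermal and fibroblast growth factors are known to express it widely, so Olig2 alone does not name a cell type. Oligodendrocyte precursors carry further genes, among them Pdgfra, Cspg4 and Sox10, and then switch on myelin genes as they mature. Olig2 lies on chromosome 16 from 91225457 to 91228677 (ENSMUSG00000039830, mouse genome GRCm38).

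The cells came from the microdissected dentate gyrus of late-gestation mouse embryos, littermates from C57BL/6J mothers and Kmt2d+/βgeo fathers. The Kmt2d+/βgeo embryos carried 1 gene-trap allele of Kmt2d, labelled Mll2Gt(RRt024)Byg, and the wild-type embryos carried none. Both were grown as undifferentiated progenitors, which is day 0, and EGF and FGF2 were then withdrawn for 2, 4 or 8 days. Single cells were profiled by droplet 3′-end sequencing, and RNA molecules were counted by their unique molecular identifiers (UMIs). There was 1 library per genotype and day, so genotype, culture and library cannot be told apart, and the only replication of a comparison within day 8 is its repeat in the other library.

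The libraries were not of equal depth. Median total UMIs per cell were 8133 in Olig2 cells and 7845 in cells at 0 of the Kmt2d+/βgeo library, against 13594.5 and 14270 in the wild-type library. Within a library the classes were therefore close in depth. Between either day 8 library and any other library at most 10 cell barcodes were shared, and at most 1 of them belonged to an Olig2 cell. Kmt2d itself did not check the labels, since its mean normalised count over all day 8 cells was 0.290 under the Kmt2d+/βgeo label and 0.241 under the wild-type label. The 2 libraries of day 4 were near-identical, with 0 of 7459 genes differing by a log2 ratio of 1 or more between them, against 54, 118 and 221 genes at days 0, 2 and 8. Luzp2, at 2.62 and 0.0575 in the day 8 libraries, was at 0.0502 and 0.0422 at day 4. Day 4 values are therefore given but were kept out of the main tests, and 1 alternative of the day contrast held them.

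Olig2 cells made up 29.3% of the Kmt2d+/βgeo library at day 8 (exact 95% interval 27.7 to 31.0) and 21.2% of the wild-type library (19.8 to 22.7). These intervals, like all others here, cover counting error only. On day 0 the same rule took 85.7% and 95.3% of cells. On day 2 it took 68.0% and 77.6%, and on day 4 37.1% and 39.0%. The order of the labelled genotypes at day 8 was thus the opposite of that at days 0 and 2. After every cell was thinned to 3000 UMIs, the share of cells with any Olig2 UMI was 23.4% in the Kmt2d+/βgeo library and 14.6% in the wild-type library, with 765 and 4 shallower cells left out. With at least 2 estimated UMIs required, the shares came closer, at 12.8% and 10.6%. That cut is not scaled for depth, and median UMIs on the matrix genes were 3972 in the Kmt2d+/βgeo library and 6989 in the wild-type library. The part of depth in the closer shares was not tested.

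**Figure D1:**
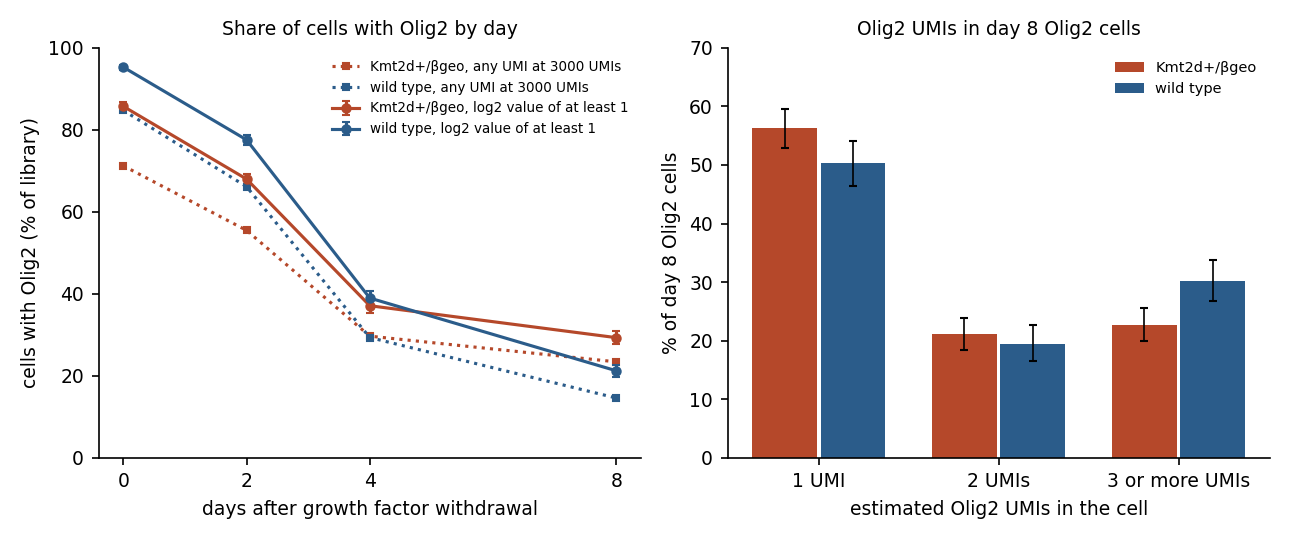
Left, share of cells with Olig2 in each library by day, as a log2 value of at least 1 (solid lines, exact 95% intervals) and as any UMI after thinning to 3000 UMIs (dotted lines). Right, share of day 8 Olig2 cells with 1, 2 or 3 or more estimated Olig2 UMIs, with exact 95% intervals. The solid lines fall from 85.7% and 95.3% at day 0 to 29.3% and 21.2% at day 8, and cells with 1 UMI are the largest class at day 8.

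In most of the Olig2 cells few Olig2 UMIs were counted. The day 8 libraries were shallower than those of day 0, with medians of 3972 and 6989 UMIs on the matrix genes against 11229.5 and 9402. A single UMI was estimated in 489 of the 869 Olig2 cells of the Kmt2d+/βgeo library (56.3%) and in 343 of the 682 of the wild-type library (50.3%). Cells with 3 or more UMIs were a minority of 197 (22.7%) and 206 (30.2%), but they held 52.4% and 69.7% of the Olig2 UMIs of the class. Cells with 10 or more UMIs numbered 16 and 49, and the highest counts were 15 and 21 UMIs. The mean log2 value over the Olig2 cells was 2.27 and 1.93, against 2.64 and 3.02 over Olig2 cells of day 0. At the threshold, the values just inside were 1.00129 and 1.00154, and those just outside were 0.996644 and 0.996262. A single UMI is worth more in a shallow cell, and single-UMI cells spanned 1.00 to 3.38 in the Kmt2d+/βgeo library and 1.00 to 1.95 in the wild-type library. No cell type that should lack Olig2 could be set beside these shares as a measure of free RNA. Cells with the neuronal gene Rbfox3 at a log2 value of 1 or more were themselves Olig2 cells in 35.1% of 131 and 39.0% of 77 cases.

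To learn what else distinguished the Olig2 cells, mean normalised counts of each class were compared within each library. The log2 ratios, with 0.05 added to each mean, were tested with limma over both libraries. Of 7820 genes tested, 714 were higher in Olig2 cells (9.13%) and 384 were lower (4.91%) at a Benjamini-Hochberg adjusted p under 0.05. Of these, 712 and 384 had 1 sign in both libraries, as did 5317 of all 7820 genes tested. A call on the mean of both libraries favours genes with 1 sign, so this count is in part given by the call. Genes were tested where their mean normalised count reached 0.1 in either class of either library. In all, 272 of them, 81 of the 714 among them, passed through Olig2 cells alone, with under 0.1 in cells at 0 of both libraries. For these genes at least 1 library had to be higher in Olig2 cells. Through cells at 0 alone 115 passed, 6 of the 384 among them. The differences were mostly small, with medians of 0.30 and 0.47 in the higher genes and -0.29 and -0.36 in the lower ones, Kmt2d+/βgeo library first. A rule with no test, at least 1.5-fold in both libraries with the 0.05 added, gave 88 higher genes (1.13%) and 8 lower genes (0.102%). The added constant shrinks the folds, so some genes with means 1.5-fold apart in both libraries are not counted. With 2 libraries of different genotype and 1 residual degree of freedom before moderation, the p-values lean on a spread shared over genes, so both libraries' values are given throughout. With the cells thinned to 3000 UMIs the calls were 310 and 157, with cells at 0 weighted to the depth of the Olig2 cells they were 771 and 433, and without the trend in the prior spread they were 346 and 139.

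**Figure D2:**
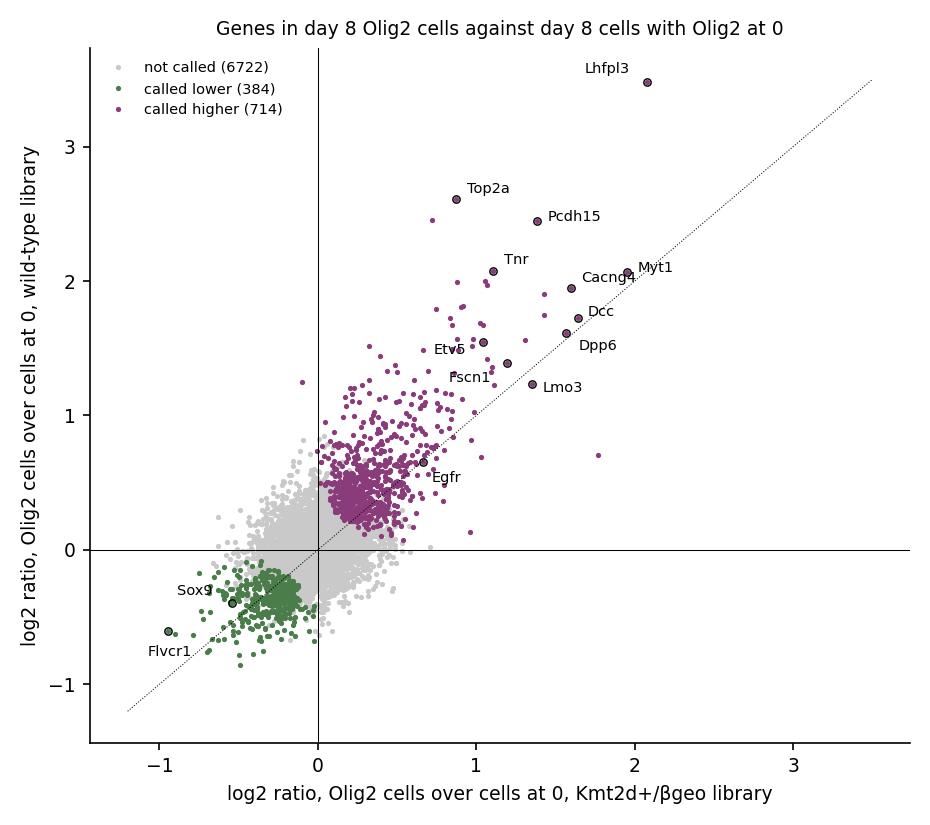
Log2 ratio of mean normalised counts (0.05 added) in Olig2 cells over cells at 0, in the Kmt2d+/βgeo library (x axis) and the wild-type library (y axis). Each point is 1 of 7820 genes, coloured by the limma call, and the dotted line marks equal ratios. Lhfpl3 lies farthest out at 2.08 and 3.48, and the 714 genes called higher reach farther from 0 than the 384 called lower.

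Genes of the oligodendrocyte lineage were higher in Olig2 cells. Of 25 genes on the list, 6 were in the deposited matrix, and of the 5 beside Olig2 the limma test called 4 higher and 0 lower (over all genes tested, 9.13% and 4.91%). Tnr and Pcdh15, 2 of the 4, passed the minimum through Olig2 cells alone, and with no minimum the counts were again 4 and 0 of 5. The median log2 ratio of the 5 was 1.11 and 2.08, against 0.0088 and 0.048 over all genes tested. The defining genes Pdgfra, Cspg4 and Sox10 and the myelin genes Mbp and Mog were not among the 6 and were not analysed here, so the cells are called by their rule and not by a lineage.

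Lhfpl3, a tetraspan membrane protein gene known as a marker of oligodendrocyte precursors (chromosome 5, 22746059 to 23275597), stood at 0.666 in Olig2 cells and 0.119 in cells at 0 of the Kmt2d+/βgeo library. In the wild-type library it stood at 1.49 and 0.0878. These are mean normalised counts, and they rest on 213, 95, 670 and 172 estimated UMIs. The log2 ratios were 2.08 and 3.48, and the limma mean was 2.78 ± 0.13 (SE; Benjamini-Hochberg adjusted p = 3.39e-25). This SE and p lean on the spread shared over genes and do not measure the gap between the 2 libraries, which was wider. Thinned to 3000 UMIs, 7.28% and 17.4% of Olig2 cells had an Lhfpl3 UMI, against 2.60% and 2.61% of cells at 0.

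Pcdh15, a protocadherin gene also used as a precursor marker, was at 0.105 against 0.00932 in the Kmt2d+/βgeo library and at 0.248 against 0.00459 in the wild-type library. Its fitted log2 ratios were 1.39 and 2.45 (limma with Benjamini-Hochberg, adjusted p = 8.78e-13). They depend on the added 0.05, since cells at 0 held only 6 and 8 estimated UMIs, and without it the means differed 11.3-fold and 54.0-fold. Tnr, which encodes the matrix glycoprotein tenascin-R made by oligodendrocyte lineage cells and some neurons, had ratios of 1.11 and 2.08 (limma with Benjamini-Hochberg, adjusted p = 7.08e-10). These depend on it likewise, with 9 UMIs in cells at 0 of either library and folds of 6.70 and 40.2 between the means. Bcas1 marks precursors that are about to form myelin, and its ratios were 0.49 and 1.38 (limma with Benjamini-Hochberg, adjusted p = 2.92e-06). Cnp, a gene of myelinating cells, was not called, at 0.666 against 0.626 in the Kmt2d+/βgeo library and 1.14 against 1.23 in the wild-type library.

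Ranked by the smaller of the ratios in the 2 libraries, the 10 highest genes were Lhfpl3, Myt1, Dcc, Cacng4, Dpp6, Megf11, Lnx1, Pcdh15, Lmo3 and Fscn1. All 10 had a ratio of at least 1.19 in both libraries. This ranking, and that of the lowest genes below, took only genes with a mean of at least 0.1 in either class of both libraries. Of the 10, all but Lhfpl3, Lmo3 and Fscn1 passed the minimum through Olig2 cells alone. For the genes that did, higher values in the Olig2 cells of both libraries were fixed in advance, though the size of the ratios was not. Their place here is thus in part given by that minimum. Myt1 encodes a zinc finger factor of neural and oligodendrocyte progenitors. It was at 0.167 against 0.00625 in the Kmt2d+/βgeo library. In the wild-type library it was at 0.160 in Olig2 cells, with 67 estimated UMIs, and had 0 UMIs in the 2459 cells at 0. Its fitted ratios of 1.95 and 2.07 depend on the added constant and are no measure of its fold.

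Cacng4, an auxiliary subunit of AMPA-type glutamate receptors (chromosome 11, 107732357 to 107794557), was at 0.323 in the Olig2 cells of both libraries, against 0.0731 and 0.0468 in cells at 0. Its log2 ratios were 1.60 and 1.95 (limma with Benjamini-Hochberg, adjusted p = 9.8e-17). Cacng4 passed the minimum through Olig2 cells alone, so the direction of these ratios is in part given by that minimum. Gria2, a subunit of those receptors that was singled out after its values were seen, had ratios of 1.77 and 0.71. Dpp6, an auxiliary subunit of voltage-gated potassium channels, had ratios of 1.57 and 1.61, and Dcc, the netrin receptor that guides axons and migrating precursors, had 1.64 and 1.72. In cells at 0 Dcc had 4 and 1 estimated UMIs, so its ratios depend on the added constant as those of Myt1 do. Fscn1, an actin-bundling protein of cell protrusions, was at 0.808 against 0.325 in the Kmt2d+/βgeo library and at 0.939 against 0.328 in the wild-type library. Its ratios were 1.19 and 1.39 (limma with Benjamini-Hochberg, adjusted p = 1.72e-17). The remaining 3, Megf11, Lnx1 and Lmo3, encode a cell-surface receptor with EGF-like repeats, a ubiquitin ligase and a LIM-domain cofactor, and their ratios lay between 1.23 and 1.91. The ratios of Dpp6, Megf11 and Lnx1 also depend on the added constant. Without it their means differed 7.23-fold and 5.82-fold, 5.40-fold and 7.95-fold, and 9.71-fold and 11.0-fold.

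Growth factor response genes were higher as well, 8 days after the factors were withdrawn. Of 11 tested genes on that list, 7 were called higher and 0 lower (over all genes tested, 9.13% and 4.91%), with medians of 0.27 and 0.48. Etv5, a transcription factor induced by fibroblast growth factor signalling, was at 0.541 against 0.237 in the Kmt2d+/βgeo library and 0.408 against 0.107 in the wild-type library. Its log2 ratios were 1.04 and 1.55 (limma with Benjamini-Hochberg, adjusted p = 2.72e-14). Etv1, of the same family, had ratios of 0.76 and 1.04. Spred1 and Spry2, feedback inhibitors of the pathway, had ratios of 0.38 and 0.48, and of 0.35 and 1.03. Egfr, the epidermal growth factor receptor (chromosome 11, 16752203 to 16918158), was at 1.99 against 1.23 in the Kmt2d+/βgeo library and 1.67 against 1.04 in the wild-type library. With log2 ratios of 0.67 and 0.66 it was nearly alike in both (limma with Benjamini-Hochberg, adjusted p = 2.19e-10). Ccnd2, the cyclin that carries mitogen signals into the cell cycle, had ratios of 0.27 and 0.47, and its call was lost without the trend. At day 0, with the factors present, Etv5 had ratios of 0.37 and 0.59, Egfr 0.42 and 0.27, and Spry2 0.38 and 0.70. When day 8 was set against days 0 and 2, as given below, 3 genes of the list were called higher, Etv5 among them. Egfr and Spry2 were not called there. After thinning to 3000 UMIs 7 of 12 tested genes of the list were called higher. The count was 5 without the trend and 6 in a fit that also held days 0 and 2. Egfr and Tcf4 were the 2 of 8 tested progenitor and proneural factors that were called higher (25%), and 0 were lower.

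Genes of DNA replication and division were higher in Olig2 cells, with larger medians in the wild-type library. The wild-type ratio was also the larger in absolute size for 581 of all 714 genes called higher (81.4%). The same held for 4481 of all 7820 genes tested (57.3%), and no test compared the libraries. Of 20 tested S phase genes 13 were called higher and 0 lower (over all genes tested, 9.13% and 4.91%), with medians of 0.23 and 0.68. For G2 and M phase genes the counts were 11 and 0 of 20, with medians of 0.17 and 0.49. On each list 6 tested genes passed the minimum through Olig2 cells alone, 6 and 4 of the called genes, Top2a among them. With no minimum the counts were 14 of 23 and 10 of 22. Top2a, the topoisomerase of dividing cells, was at 0.105 against 0.0345 in the Kmt2d+/βgeo library, from 73 and 39 estimated UMIs. In the wild-type library it was at 0.456 against 0.0329, from 287 and 69 UMIs. Its log2 ratios were 0.87 and 2.61 (limma with Benjamini-Hochberg, adjusted p = 2.94e-11). This p leans on the spread shared over genes and does not measure the wide gap between the 2 libraries. Mcm7, of the replicative helicase, had ratios of 0.39 and 1.44, and Dut, which keeps uracil out of DNA, had 0.38 and 0.90. Pola1, of the priming polymerase, was closer at 0.61 and 0.65. Mcm6 was called, but its ratios of -0.10 and 1.25 show that the wild-type library alone carried it. After thinning to 3000 UMIs the called genes were 8 and 5 of the lists, and 10 and 8 without the trend. Thinning also left out 210 of the 869 Olig2 cells of the Kmt2d+/βgeo library. With cells at 0 weighted to the depth of the Olig2 cells the counts were 12 and 11. Even in Olig2 cells the levels were low, at under 1 normalised count for each of Top2a, Mcm7, Dut and Pola1.

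Radial glia and neural stem cell genes moved in both directions. Of 13 tested, 4 were called higher and 4 lower (over all genes tested, 9.13% and 4.91%). Those higher were Ptprz1, Bcan, Fabp7 and Vcan. Ptprz1, a receptor phosphatase of radial glia and oligodendrocyte precursors, was at 6.91 against 4.72 in the Kmt2d+/βgeo library and at 10.5 against 6.76 in the wild-type library (limma with Benjamini-Hochberg, adjusted p = 3.37e-10). Bcan, the matrix proteoglycan brevican, had log2 ratios of 0.57 and 0.65. Fabp7, the brain fatty acid binding protein, had ratios of 0.31 and 0.50. Vcan, the proteoglycan versican, had 0.10 and 0.88, so the wild-type library carried most of it. Those lower were Vim, Hopx, Mt3 and Slc1a3, and their ratios lay between -0.50 and -0.08. Vim, Mt3 and Slc1a3 are known to be strong in astrocytes also. The counts were 4 and 2 after thinning, and 3 and 0 without the trend.

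The astrocyte genes that were called were lower in Olig2 cells. Of 15 tested, 0 were called higher and 7 lower (over all genes tested, 9.13% and 4.91%), with medians of -0.15 and -0.24. The differences were small, and the count was 9 with cells at 0 weighted to the depth of the Olig2 cells, 5 after thinning, 3 in a fit that also held days 0 and 2, and 1 without the trend. Sox9, the glial fate factor (chromosome 11, 112782224 to 112787760), was at 5.40 against 7.89 in the Kmt2d+/βgeo library and at 5.52 against 7.27 in the wild-type library. Its log2 ratios were -0.54 and -0.39 (limma with Benjamini-Hochberg, adjusted p = 2.5e-07). Gja1, the gap junction protein connexin 43, was at 1.99 against 2.44 and at 2.88 against 3.56, with ratios of -0.29 and -0.30. Sparcl1 and Ttyh1 had ratios between -0.33 and -0.24. Apoe, the main brain apolipoprotein, was at 93.8 against 95.04 and at 202 against 239 and was not called. Slc1a2, the glutamate transporter of mature astrocytes, was also not called, at 2.18 against 2.03 and 1.71 against 1.48.

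The 10 lowest genes were Riiad1, Bace2, Pkp4, Nkain4, Lrp2, P4ha3, Flvcr1, Pawr, Stom and Arvcf. Their ratios lay between -0.94 and -0.54 in the Kmt2d+/βgeo library and between -0.76 and -0.56 in the wild-type library. Flvcr1, a heme and choline transporter gene, had the farthest ratio in the Kmt2d+/βgeo library at -0.94, with -0.60 in the wild-type library. Bace2, an aspartyl protease related to the enzyme that cuts the amyloid precursor, was at 0.364 against 0.617 and at 0.872 against 1.49. Lrp2, the endocytic receptor megalin, was at 0.0776 against 0.147 and at 0.105 against 0.196, and it lost its call after thinning, where its ratios were -0.51 and -0.61. Pkp4 and Arvcf both encode proteins of the p120 catenin family at cell junctions. None of these 10 was on any of the 14 gene lists.

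Neuronal genes also went with Olig2. Of 12 tested, 9 were called higher and 0 lower (over all genes tested, 9.13% and 4.91%), with medians of 0.27 and 0.53, and 5 were called after thinning. Elavl3 and Celf4, RNA-binding protein genes of neurons, had ratios of 0.90 and 1.81, and of 0.89 and 1.48. Both, like Gad1, passed the minimum through Olig2 cells alone. Elavl3 was rare, with 19 and 67 estimated UMIs in Olig2 cells and 10 and 9 in cells at 0 of the 2 libraries. Its means differed 5.25-fold and 24.4-fold, so its ratios too depend on the added 0.05. Gad1, which makes the transmitter GABA, was at 0.139 against 0.0676 and at 0.144 against 0.0628, and its call was lost after thinning, where its ratios were 0.44 and 0.96. Map2 and Mapt, of the neuronal cytoskeleton, had ratios between 0.31 and 0.44. Rbfox3, the gene of the neuronal marker NeuN, was not called, at 0.123 against 0.109 and 0.0846 against 0.0373. Dcx, Tubb3, Stmn2 and Snap25 were not among the genes analysed. The summed level of the 12 neuronal genes was 12.6 in Olig2 cells against 11.0 in cells at 0 in the Kmt2d+/βgeo library and 16.3 against 13.1 in the wild-type library. The list had 9 genes called higher in Olig2 cells with 3 or more UMIs. In those with 1 UMI 10 of the 12 were tested and 0 called, and Elavl3 and Celf4 were under the minimum there and not tested. The part of doublets or free RNA in this was not tested.

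Other lists moved little. Over all genes tested, 9.13% were called higher and 4.91% lower. Of 12 Notch pathway genes, Notch1 and Dner were called higher (16.7%) and 0 lower. Of 19 genes of the BMP, WNT and hedgehog pathways, Axin2 and Wnt7b were called higher (10.5%) and Fzd3, a WNT receptor, lower (5.26%), shares near those of all genes. For cell stress and early response genes 0 of 10 were higher and 1, the metallothionein gene Mt2, was lower. Both tested genes of the ependymal list were called lower, Meig1 with ratios of -0.16 and -0.41 and Dynlrb2 with -0.02 and -0.68. The wild-type library alone carried Dynlrb2, and after thinning its ratios were 0.13 and -0.97. Of the 2 calls, 1 was left after thinning and 0 without the trend or in the fit that also held days 0 and 2. None of the 15 endothelial, mural and fibroblast markers was in the matrix. Kmt2d was not called, at 0.269 against 0.300 and 0.245 against 0.240.

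These differences came mostly from the cells with more than 1 Olig2 UMI. When only Olig2 cells with a single UMI were set against cells at 0, 41 genes were called higher and 41 lower by limma, against 1233 and 863 when only those with 3 or more UMIs were taken. Both cuts were added once the values were known. Over the 10 highest genes, the median log2 ratio was 0.47 and 0.22 in single-UMI cells and 2.95 and 3.18 in cells with 3 or more UMIs. Over the 10 lowest genes it was -0.39 and -0.33, against -1.21 and -1.54. The 10 genes were ranked on all Olig2 cells, so this is a description of where their values lay. Lhfpl3 was called in single-UMI cells also, as 1 of the 3 lineage genes tested there. Of the cell cycle lists 17 and 15 genes were tested there and 0 called. Tnr, Pcdh15 and Top2a were under the minimum in that comparison and were not tested, nor were 7 of the 10 highest genes.

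**Figure D3:**
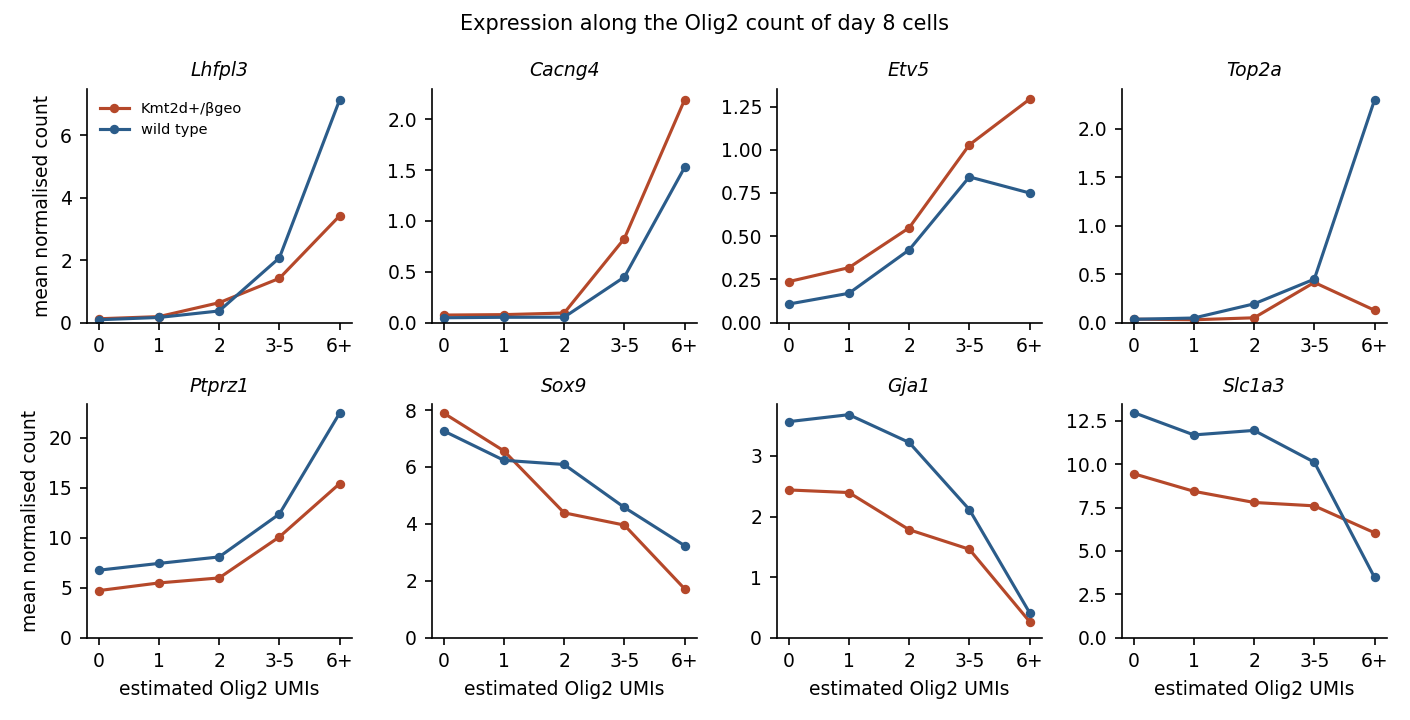
Mean normalised count of 8 genes in day 8 cells by their estimated Olig2 UMIs (0, 1, 2, 3 to 5, and 6 or more), in the Kmt2d+/βgeo library (red) and the wild-type library (blue), with no error bars because each point is 1 library. Lhfpl3 climbs from 0.119 and 0.0878 at 0 UMIs to 3.42 and 7.13 at 6 or more, whereas Gja1 falls from 2.44 and 3.56 to 0.269 and 0.415.

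Along the Olig2 count, the genes did not all change in step. Lhfpl3 went from 0.188 at 1 UMI to 0.635 at 2, 1.41 at 3 to 5 and 3.42 at 6 or more UMIs in the Kmt2d+/βgeo library. In the wild-type library it went from 0.162 to 0.370, 2.07 and 7.13. Cacng4 was nearly flat up to 2 UMIs in the Kmt2d+/βgeo library, at 0.0731, 0.0775 and 0.0930 for 0, 1 and 2 UMIs, and reached 2.19 at 6 or more. Etv5 rose earlier, to 0.548 and 0.420 at 2 UMIs, and in the wild-type library it was no higher at 6 or more UMIs (0.750) than at 3 to 5 (0.843). Egfr was highest at 3 to 5 UMIs in both libraries, at 2.55 and 2.30, and lower at 6 or more, at 2.16 and 1.60. Top2a parted the libraries. At 6 or more UMIs it was at 2.30 in the wild-type library and at 0.126 in the Kmt2d+/βgeo library, where it peaked at 0.414 at 3 to 5 UMIs. The top class held 46 and 96 cells. These classes are UMI counts not scaled for depth, so a class is not the same Olig2 level in both libraries. Olig2 cells with 3 or more UMIs had medians of 3886 and 6150 UMIs on the matrix genes. All Olig2 cells of the Kmt2d+/βgeo library together held only 73 estimated Top2a UMIs, so its values by class there rest on few. Gja1 stayed near its level at 0 in single-UMI cells, at 2.40 and 3.68, and fell to 0.269 and 0.415 at 6 or more UMIs. Mt3 fell from 160 and 194 at 0 UMIs to 52.0 and 26.8 at 6 or more. Of the 15 astrocyte genes, 11 were called lower and 1 higher in Olig2 cells with 3 or more UMIs.

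Lhfpl3 split the Olig2 cells further. Any Lhfpl3 value was present in 104 of the 869 Olig2 cells of the Kmt2d+/βgeo library (11.97%, exact 95% interval 9.88 to 14.3) and in 82 of 2094 cells at 0 (3.92%). In the wild-type library it was present in 152 of 682 Olig2 cells (22.3%, 19.2 to 25.6) and 144 of 2459 cells at 0 (5.86%). Read the other way, 55.9% of 186 and 50.2% of 303 cells with Lhfpl3 were Olig2 cells. The split was added once values were known. Olig2 cells with Lhfpl3 averaged 4.01 and 6.95 Olig2 UMIs, against 1.80 and 1.81 in those without. Cacng4 was at 1.85 and 1.25 in Olig2 cells with Lhfpl3 and at 0.115 and 0.0579 in those without. Top2a was at 0.494 and 1.93 with Lhfpl3 and at 0.0518 and 0.0328 without, where cells at 0 had 0.0345 and 0.0329. Mcm7 was at 0.645 and 1.24 with Lhfpl3 and at 0.197 and 0.226 without, where cells at 0 had 0.179 and 0.135. For Sox9 the values were 2.42 and 3.68 with Lhfpl3, and 5.80 and 6.04 without. Elavl3 was at 0.373 and 0.631 with Lhfpl3 and at 0.0261 and 0.00738 without, so this neuronal gene was higher in the Olig2 cells that had Lhfpl3. Rbfox3 went in different directions in the 2 libraries, at 0.0676 and 0.107 with Lhfpl3 and at 0.130 and 0.0783 without.

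The Olig2 cells lay near each other only in part. For each day 8 cell the 15 nearest cells of its library were found on 20 principal components of 1000 variable genes without Olig2. Olig2 cells made up 38.5% of the neighbours of Olig2 cells and 25.7% of those of cells at 0 in the Kmt2d+/βgeo library, where the whole library held 29.3%. In the wild-type library the shares were 37.1% and 15.6%, with 21.2% overall. Around single-UMI cells they were 31.4% and 22.3%, close to the libraries' own shares. Around cells with 3 or more UMIs they were 57.6% and 66.9%. Most neighbours were Olig2 cells for 52.8% and 60.2% of the cells with 3 or more UMIs.

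**Figure D4:**
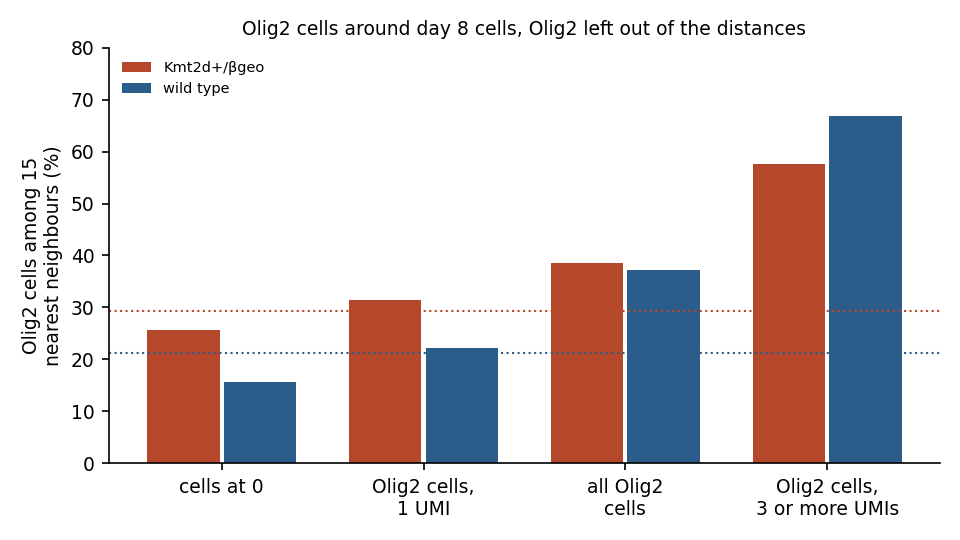
Mean share of Olig2 cells among the 15 nearest neighbours of day 8 cells with Olig2 at 0, of Olig2 cells with 1 UMI, of all Olig2 cells and of those with 3 or more UMIs, in each library. Dotted lines mark the share of Olig2 cells in the whole library (29.3% and 21.2%), and bars are means over cells of 1 library with no error. The bars rise from 25.7% and 15.6% around cells at 0 to 57.6% and 66.9% around cells with 3 or more UMIs.

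At day 0, when most cells had Olig2, most of these genes had smaller ratios. Over the 10 highest genes of day 8 the median log2 ratio of Olig2 cells over cells at 0 was 0.19 and 0.24 at day 0, and 8 of the 10 were above 0 in each library. Myt1 was 1.5-fold or more higher in both libraries, with ratios of 0.75 and 0.80, and Megf11 had 0.21 and 0.59. On day 2 the medians were 1.22 and 0.93. On day 4 they were 1.84 and 1.59, and on day 8 1.497 and 1.83. For the 10 lowest genes the medians at day 0 were -0.03 and -0.23. Their medians were already -0.67 and -0.65 at day 2 and -0.66 and -0.65 at day 4, against -0.68 and -0.65 at day 8. The genes were chosen at day 8, so a smaller value on other days is in part given by that choice. Cells at 0 were few at day 0, with 345 and 122 cells.

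**Figure D5:**
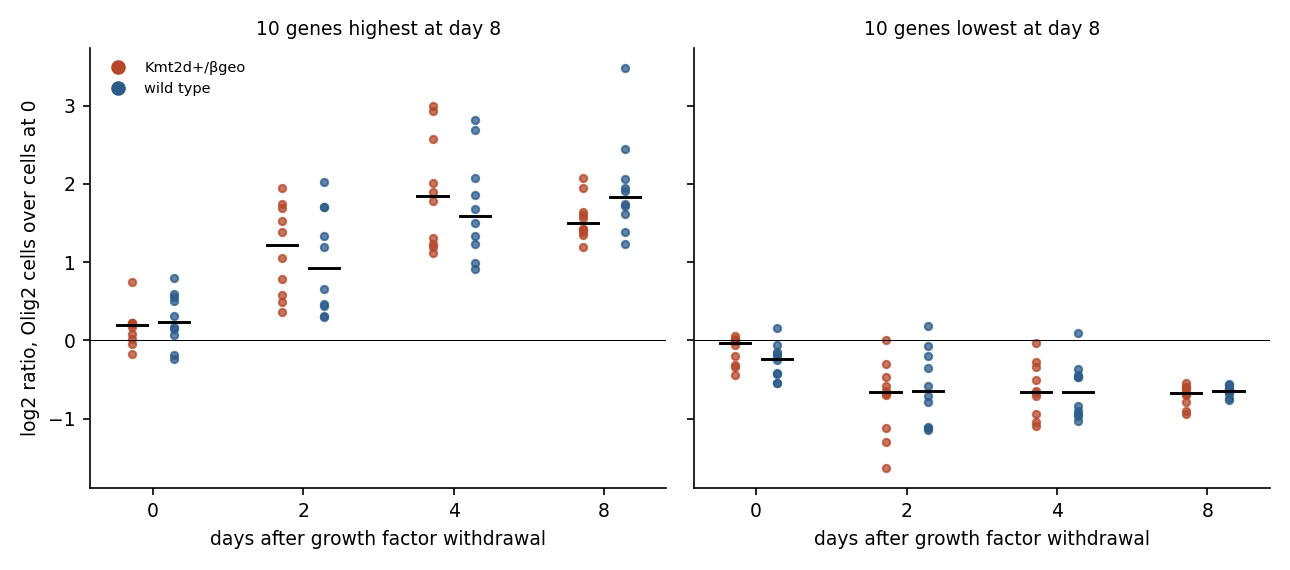
Log2 ratio of mean normalised counts (0.05 added) in Olig2 cells over cells at 0 on each day, for the 10 genes highest and the 10 lowest at day 8. Each point is 1 gene in the Kmt2d+/βgeo (red) or wild-type (blue) library of that day, and black bars are medians. Medians of the highest genes move from 0.19 and 0.24 at day 0 to 1.497 and 1.83 at day 8, and the 2 libraries of day 4 were near-identical in all their genes.

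The change between days was tested over all genes, as the class difference at day 8 minus the mean of those at days 0 and 2. By limma with Benjamini-Hochberg adjustment, 123 of 7820 genes (1.57%) had a higher difference at day 8 and 16 (0.205%) a lower one. Of the 123, 28 had passed the minimum through day 8 Olig2 cells alone, Cacng4 among them, so their direction is in part given by that minimum. The highest moderated t values were those of Fscn1, Bcan, Cspg5, Ptn and Enpp2. Bcan had ratios of -0.11 and -0.11 at day 0 and -0.20 and -0.32 at day 2, and 0.57 and 0.65 at day 8. Its difference was 0.79 ± 0.06 (SE; limma with Benjamini-Hochberg, adjusted p = 0.000174). Fscn1 had 0.18 and 0.18 at day 0 and 1.19 and 1.39 at day 8, a difference of 1.00 (limma with Benjamini-Hochberg, adjusted p = 0.000174). Cspg5, a brain proteoglycan gene, and Ptn, a growth factor that binds such proteoglycans, had differences of 0.92 and 0.67. Enpp2, which makes lysophosphatidic acid, had 1.13. Cacng4, at 0.22 and 0.14 at day 0, had a difference of 1.48 (limma with Benjamini-Hochberg, adjusted p = 0.000461), and Lhfpl3 had a larger one of 1.67 (limma with Benjamini-Hochberg, adjusted p = 0.0162). The lowest moderated t values were those of Txn1, Wnt5a, Anxa6, Ccser2 and Rfx4. Flvcr1 had a larger difference of -0.80 (limma with Benjamini-Hochberg, adjusted p = 0.0248). Txn1, the redox protein thioredoxin, had ratios of 0.24 and 0.14 at day 0. On day 2 they were 0.85 and 0.89, and on day 8 -0.06 and -0.10, a difference of -0.61 (limma with Benjamini-Hochberg, adjusted p = 0.000461). Wnt5a, a WNT ligand, and Rfx4, a factor of ciliated neural progenitors, had differences of -0.67 and -0.41.

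After thinning to 3000 UMIs, which also left out 765 cells of the Kmt2d+/βgeo day 8 library, 14 genes were higher and 1, Txn1, was lower. Fscn1, Bcan, Cspg5 and Ptn kept their calls there, and Enpp2, Cacng4 and Lhfpl3 did not, with limma and Benjamini-Hochberg adjusted p values of 0.217, 0.0823 and 0.208. Their differences were then 0.73, 1.28 and 1.45. With day 4 added to days 0 and 2, Lhfpl3 also lost its call, with a difference of 1.08 (limma with Benjamini-Hochberg, adjusted p = 0.0655). By thinning, Wnt5a, Anxa6, Ccser2 and Rfx4 lost their calls (limma with Benjamini-Hochberg, adjusted p = 0.0905, 0.202, 0.0773 and 0.318). Their differences after thinning were -0.61, -0.60, -0.59 and -0.35, and with day 4 added they kept their calls. Against day 0 alone, Txn1 had a difference of -0.27 (limma with Benjamini-Hochberg, adjusted p = 0.0646) and Wnt5a of -0.34 (adjusted p = 0.171).

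Olig2 cells were also read with genes that changed over time in cells without Olig2. Genes lower by a log2 ratio of 1 or more at day 8 than at day 0 were chosen among cells at 0 of 1 genotype and read in the day 8 library of the other, so that choice and reading shared no cells. The 754 genes chosen in the Kmt2d+/βgeo libraries had a median ratio of 0.25 in the wild-type Olig2 cells, and 87.7% of them were above 0, against 0.048 and 59.6% of all genes. The 569 genes chosen in the wild-type libraries had a median of 0.17 in the Kmt2d+/βgeo Olig2 cells, and 81.4% were above 0, against 0.0088 and 52.3% of all genes. Genes that were higher at day 8 went the other way, with medians of -0.12 over 1033 genes and -0.15 over 888. For most of these genes, day 8 Olig2 cells thus differed from cells at 0 in the direction of day 0, by a small amount. That direction was taken from cells at 0 of the other genotype, with 345 (Kmt2d+/βgeo) and 122 (wild type) such cells at day 0. The distance of either class to day 0 levels was not measured.

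Set side by side, the Olig2 cells of the 2 libraries differed in several genes by which the cells at 0 differed too. With 1 library each at day 8 there was no test between genotypes for that day alone, and none that paired genotypes across days was run. Hopx, a homeodomain cofactor of quiescent stem cells, was at 5.13 in Kmt2d+/βgeo Olig2 cells and 1.74 in wild-type ones, and at 6.59 and 1.84 in the cells at 0. Luzp2 was at 2.36 and 0.0630 in Olig2 cells and at 2.73 and 0.0552 in cells at 0. Apoe was at 93.8 and 202 in Olig2 cells and at 95.04 and 239 in cells at 0. Lhfpl3 did not follow this pattern, with 0.666 and 1.49 in Olig2 cells and 0.119 and 0.0878 in cells at 0. Among the 714 genes called higher in Olig2 cells, the ratio was larger in absolute size in the wild-type library for 581 (81.4%). The same held for 246 of the 384 called lower (64.1%) and for 4481 of all 7820 genes tested (57.3%). The Kmt2d+/βgeo library was the shallower of the pair, with a median of 4020 UMIs on the matrix genes in its Olig2 cells against 6580, and the part of depth in this was not tested.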

How the data were processed

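Per the study's methods, the authors quantified reads with Alevin (Salmon 1.3.0) against GRCm38, took spliced counts, removed outlier cells, likely doublets, mitochondrial genes and rare genes, and normalised by library size. The deposited matrix holds log2 values for 9140 genes and 30408 cells. The deposited cell table gives total UMIs as the authors' estimated counts. Here log2 values were turned back to normalised counts, which summed to 8707.1 in every cell. Each cell's most frequent nonzero value served as 1 UMI, and 86.8% of nonzero values were then within 0.01 of a whole UMI. Cells were averaged by class within each library, and log2(mean + 0.05) was tested with limma 3.58.1 (R 4.3.3, eBayes with trend, library as a block) over 7820 genes with a mean of at least 0.1 in any of 4 columns, Olig2 left out, with Benjamini-Hochberg adjustment at 0.05. The day contrast used 12 columns of days 0, 2 and 8. No count model was run, because the unit is log2. Shares have exact Clopper-Pearson 95% intervals. The limma script was tested on simulated data. The day 8 comparison was repeated with other constants, minimums, scales, depths, Olig2 cuts and libraries. The day contrast was repeated only with day 4 added, against day 0 alone and after thinning to 3000 UMIs.

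The cells and gene lists were chosen with earlier results of these data known. Genes named are the measured oligodendrocyte lineage genes, 19 fixed genes (16 in the matrix), the 10 highest and 10 lowest by the smaller of the 2 libraries' ratios, up to 4 per list, and the 5 highest and 5 lowest of the day contrast. Elavl3, Vcan, Spry2, Mcm6 and Gria2, the split by Lhfpl3 and the use of Rbfox3 cells were added after values were seen. So were the limma comparisons of Olig2 cells with 1 UMI and with 3 or more UMIs. The classes by Olig2 UMI count, used for gene means along that count and for the nearest neighbours, were not planned either. Results that need certain withheld items are not reported here.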

Additional observations from a re-analysis of the deposited data

Results flagged for a closer look

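The class difference at day 8 was higher than the mean of those at days 0 and 2 for 123 genes and lower for 16, by limma with Benjamini-Hochberg adjustment. The 5 highest and 5 lowest by moderated t are given. On the log2 scale their differences were 1.00 for Fscn1, 0.79 for Bcan, 0.92 for Cspg5, 0.67 for Ptn and 1.13 for Enpp2, and -0.61 for Txn1, -0.67 for Wnt5a, -0.57 for Anxa6, -0.60 for Ccser2 and -0.41 for Rfx4. Other called genes had larger differences. After thinning to 3000 UMIs, Enpp2, Wnt5a, Anxa6, Ccser2 and Rfx4 were not called (limma with Benjamini-Hochberg, adjusted p = 0.217, 0.0905, 0.202, 0.0773 and 0.318).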

How the results depend on the processing

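Genes called higher by limma numbered 473 with a minimum mean of 0.5, 443 on mean log2 values, 310 after thinning, 346 without the trend, 1233 with 3 or more UMIs and 41 with 1 UMI, against 714. Genes called lower numbered 157 after thinning, 139 without the trend, 156 in the fit with days 0, 2 and 8, and 863 and 41 with 3 or more and with 1 UMI, against 384. With cells at 0 weighted to the depth of the Olig2 cells they numbered 771 and 433. Thinning also left out 765 and 4 shallow day 8 cells. Of the main calls, 295 and 150 were among those after thinning. Genes 1.5-fold higher in both libraries numbered 133 and 27 with constants of 0.01 and 0.2, 34 with the minimum of 0.5, 0 on mean log2 values, 48 after thinning, and 247, 501 and 1 with 2 or more, 3 or more and 1 UMI, against 88. Genes 1.5-fold lower numbered 18, 0, 4 and 1 under the first 4 of these, 86, 348 and 1 by UMIs, and 3 with any Olig2 value, against 8. Leaving out 1 library gave 101 to 258 genes higher and 27 to 34 lower by 1.5-fold, and left no degree of freedom for a test. The day contrast gave 14 higher and 1 lower after thinning, and 29 lower with day 4 added. The share of Olig2 cells was 12.8% and 10.6% with 2 or more UMIs, 23.4% and 14.6% after thinning, and 23.4% with any value in the wild-type library. Genes chosen over time at a log2 ratio of 2 had medians of 0.57 and 0.36 (lower at day 8) and -0.24 and -0.23 (higher). The share of Olig2 cells around Olig2 cells was 37.5% and 35.7% with 50 neighbours and 36.2% and 35.4% after thinning. The median of the BMP, WNT and hedgehog list changed sign, to 0.0545 after thinning and 0.0123 with 2 or more UMIs. In single-UMI cells that of the stress list was 0.0159, and Gja1 (0.01002), Hopx (0.0193), Vcan (-0.0104) and Mcm6 (-0.0875) changed sign. Leaving out 1 library, Mcm6 ranged from -0.10 to 1.25. The causes were not tested. The day 8 comparison pairs the classes within each library, with library as the block. Between genotypes at day 8 alone, no paired analysis was possible because each has 1 library. Pairing genotypes by day was not run.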
